A study of Homo sapiens with 6 samples.

Results

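The 10 genes described here encode proteins of the BCL2 family, which set whether a cell opens its outer mitochondrial membrane and enters apoptosis. They were chosen by name (BCL2, BCL2L1, MCL1, BAX, BAK1, BAD, BID, BIK, PMAIP1 and BCL2L11) and are 10 of the 27605 genes in the table of RNA sequencing values. The table holds 6 libraries of cells labelled as HepG2, a human hepatoma line, grown in DMEM with serum. The 3 shNC libraries (genotype WT) come from cells with a control hairpin, and the 3 shARHGEF2 libraries (genotype ARHGEF2 knockdown) from cells given a lentivirus whose short hairpin RNA targets ARHGEF2, a guanine nucleotide exchange factor that activates RHOA. Both groups share the parental line and the culture medium, and the labels name no drug or stress treatment for either. The labels do not say whether the libraries of a group came from separate cultures or whether the shARHGEF2 libraries share a single hairpin, so the p-values measure only the spread between these libraries, which may be technical. The values are FPKM, fragments scaled to transcript length and to the library's mapped total, which allow levels to be compared between genes.

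Members of the family are held in balance by binding each other. The anti-apoptotic proteins (BCL2, BCL-xL from BCL2L1, and MCL1) restrain the effectors BAX and BAK, which otherwise assemble into pores and release cytochrome c. The BH3-only proteins (BAD, BID, BIK, NOXA from PMAIP1, and BIM from BCL2L11) carry death signals, either by occupying the anti-apoptotic proteins or by activating the effectors directly, and hepatocytes are known to depend on BCL-xL and MCL1 for survival.

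ARHGEF2 was at 13, 14.4 and 13.9 FPKM in shNC replicates 1 to 3 and at 4.25, 4.0 and 4.82 FPKM in shARHGEF2 replicates 1 to 3. The target was lower in every knockdown library, with a difference of -1.47 on the log2(FPKM + 1) scale (SE 0.11, adjusted p = 0.00244 in limma, or 0.0701 with no filter on level). Of the 12 hepatocyte markers examined, 6 were in the table, and the highest value of any of them in any library was 0.907 FPKM, for RBP4. Without RBP4 the highest was 0.248 FPKM, the fetal liver protein AFP reached no more than 0.0703 FPKM, and the summed level of the 6 ran from 0.414 to 0.703 FPKM in shNC and from 0.414 to 0.968 FPKM in shARHGEF2. These levels go against the HepG2 label, and the cells are called only by their group below. The keratins KRT8 and KRT18 were between 107 and 216 FPKM and vimentin (VIM) between 104 and 188 FPKM. EPCAM did not exceed 0.0547 FPKM, the leukocyte antigen PTPRC 0.0239 FPKM and the endothelial cadherin CDH5 0.0246 FPKM, while PECAM1 was at 0.583 ± 0.0385 FPKM in shNC and 0.810 ± 0.0471 FPKM in shARHGEF2 (SD, n = 3 each), and CD68, which is also lysosomal, lay between 60.4 and 87.8 FPKM. The part of these marker levels in the values below was not tested.

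The sequences shown are the start-site windows of BAX and BAK1, the pair of effectors, whose means in shARHGEF2 lay on opposite sides of the controls. They are from RefSeq (GRCh38.p14), from 250 bases before to 50 bases after the annotated start, written 5′ to 3′ on the strand of the gene. Capitals mark 3 motifs on either strand, the GC box GGGCGG, the CCAAT box CCAAT and the E-box CACGTG. The BAX window is chr19:48954625-48954924 (plus strand) and the BAK1 window chr6:33580227-33580526 (minus strand).
BAX: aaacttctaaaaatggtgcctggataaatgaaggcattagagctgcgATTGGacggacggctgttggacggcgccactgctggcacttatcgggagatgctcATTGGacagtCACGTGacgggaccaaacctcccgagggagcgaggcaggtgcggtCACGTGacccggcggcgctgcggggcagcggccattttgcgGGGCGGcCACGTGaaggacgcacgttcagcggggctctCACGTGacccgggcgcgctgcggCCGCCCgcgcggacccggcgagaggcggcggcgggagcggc
BAK1: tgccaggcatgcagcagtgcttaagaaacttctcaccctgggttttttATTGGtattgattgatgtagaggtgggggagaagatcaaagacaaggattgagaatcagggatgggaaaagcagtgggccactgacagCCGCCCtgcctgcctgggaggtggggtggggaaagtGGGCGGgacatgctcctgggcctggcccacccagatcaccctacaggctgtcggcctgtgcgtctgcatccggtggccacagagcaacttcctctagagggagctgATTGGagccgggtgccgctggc
Both windows held 2 GC boxes and 2 CCAAT boxes. The BAX window held 4 E-boxes and the BAK1 window 0, and neither held TATAAA or any of the 4 E2F-type 8-mers searched (TTTCCCGC, TTTCGCGC, TTTGCCGC and TTTGGCGC). Among 35116 windows of the same length, 45.0% held a GC box, 34.6% a CCAAT box, 7.26% an E-box, 11.5% TATAAA and 3.31% an E2F-type 8-mer. Windows were found for 8 of the 10 members. An E-box was also in 2 of the 5 BID windows, and these 2 overlap each other. TATAAA was in 1 of the 2 BCL2L1 windows. A match is a string of letters, and binding was not measured.

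Transcripts of the family spanned a wide range of levels in the control cells. In shNC the order by mean FPKM was MCL1 (49.7), BAD (48.4), BAX (42.1), BCL2L1 (38.8), BAK1 (33.8), PMAIP1 (16.9), BID (13.5), BIK (9.75), BCL2L11 (2.04) and BCL2 (0.490). The libraries of MCL1 and BAD overlapped, as did those of BCL2L1 and BAK1, although BCL2L1 was above BAK1 within each of the 3 libraries. The other neighbours in this order did not overlap. In shARHGEF2 the order was the same except that BAK1 stood in place 2 and not in place 5, with means of 64.1 (MCL1), 48.2 (BAK1), 44.0 (BAD), 36.8 (BAX), 32 (BCL2L1), 22.9 (PMAIP1), 12 (BID), 9.01 (BIK), 2.86 (BCL2L11) and 0.455 FPKM (BCL2). There BAK1 overlapped with BAD and BAD with BAX.

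**Figure D1:**
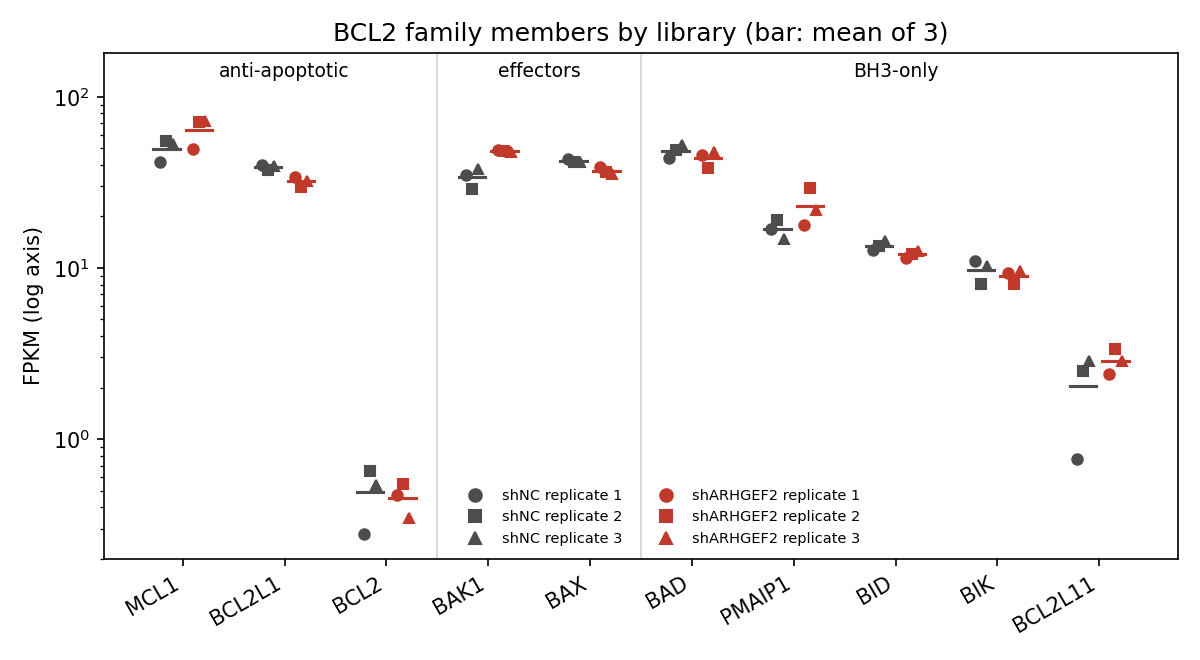
FPKM (log axis) of the 10 members in each of the 3 shNC (grey) and 3 shARHGEF2 (red) libraries, grouped by role, with a bar at the mean of 3. BAK1 lies at 47.3 to 48.6 FPKM in shARHGEF2, above all 3 shNC libraries, and BCL2L1, BAX and BID lie below theirs. Of all genes tested, 20.5% had groups that did not overlap.

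The comparison between the groups asks how the family's transcripts stood when ARHGEF2 was reduced. Over the 12291 genes whose mean reached 0.5 FPKM, limma called 34 (0.277%) at an adjusted p under 0.05. Of the 10 members, 9 passed this filter on level and 0 were called. At an unadjusted p under 0.05, 3 of the 9 passed (BAK1 and PMAIP1 higher, BCL2L1 lower), where 13.7% of all genes tested did. The libraries of the groups did not overlap for 4 of the 9 (BAK1 higher, BCL2L1, BAX and BID lower), against 20.5% of all genes tested, or 11.3% in the higher and 9.17% in the lower direction. The median log2 difference of the 9 was -0.10 (4 higher, 5 lower), and that of all genes tested was -0.00164. For a single gene compared by the exact permutation test, 3 libraries against 3 cannot give a two-sided p below 0.1. In bulk RNA, fewer cells expressing a gene and less RNA per cell cannot be told apart.

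Of the anti-apoptotic members, BCL2L1 was lower and MCL1 higher in the shARHGEF2 libraries, and neither passed the adjusted test. BCL2L1, whose main product BCL-xL protects against BAX and BAK, was at 39.7, 37.3 and 39.4 FPKM in shNC and at 34.1, 29.5 and 32.4 FPKM in shARHGEF2. Every shARHGEF2 library was below every shNC library, with means of 38.8 ± 1.28 and 32 ± 2.32 FPKM (SD, n = 3 each). The log2 difference was -0.27 (95% interval -0.48 to -0.06, limma adjusted p = 0.249). The gene-level value sums the long form and the short, pro-apoptotic BCL-xS, so it does not say which form differed.

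MCL1 encodes a short-lived protein that holds BAK in check. Its values were 41.7, 54.8 and 52.6 FPKM in shNC and 49.6, 71.1 and 71.7 FPKM in shARHGEF2. Replicates 2 and 3 of shARHGEF2 were above all control libraries and replicate 1 lay among them. The log2 difference was 0.35 (95% interval -0.02 to 0.73, adjusted p = 0.397 in limma), and 0.52 without shARHGEF2 replicate 1 (adjusted p = 0.219) or 0.23 without shNC replicate 1 (adjusted p = 0.677). BCL2, the founding member of the family, was close to the floor of the table, at 0.279, 0.647 and 0.543 FPKM in shNC and at 0.473, 0.544 and 0.347 FPKM in shARHGEF2. Its groups overlapped, and its mean over the 6 libraries (0.472 FPKM) left it outside the test. Summed, the 3 anti-apoptotic members came to 89.0 ± 6.35 FPKM in shNC and 96.6 ± 10.9 FPKM in shARHGEF2 (SD, n = 3 each), which overlapped.

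The effectors had means on opposite sides of the controls, BAK1 above and BAX below, and neither passed the adjusted test. BAK1 encodes BAK, the effector that resides on mitochondria. Its values were 34.8, 28.8 and 37.7 FPKM in shNC and 48.6, 48.5 and 47.3 FPKM in shARHGEF2. The 3 shARHGEF2 libraries stood close together and above all 3 controls, with means of 33.8 ± 4.55 and 48.2 ± 0.719 FPKM (SD, n = 3 each), a 1.43-fold difference. On the log2(FPKM + 1) scale this was 0.51 (95% interval 0.26 to 0.76, limma adjusted p = 0.117), the smallest adjusted p of the members and place 143 of all genes tested. Over the 14 alternatives the adjusted p ran from 0.0670 to 0.404 and the log2 difference from 0.40 to 0.59. Reads of the processed pseudogene BAK1P1 can be shared with BAK1. That copy was at 1.15 ± 0.438 FPKM in shNC and 1.68 ± 0.0893 FPKM in shARHGEF2, and BAK1 with BAK1P1 summed gave 34.9 ± 4.91 and 49.8 ± 0.724 FPKM (n = 3 each).

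BAX encodes the effector that moves from the cytosol to mitochondria. It was at 43.2, 41.4 and 41.6 FPKM in shNC and at 38.9, 36.2 and 35.3 FPKM in shARHGEF2. Again no shARHGEF2 library reached a control library, with means of 42.1 ± 0.968 and 36.8 ± 1.86 FPKM (SD, n = 3 each). The log2 difference was -0.19, and its 95% interval reached from -0.38 to just above 0 (0.0035) with an adjusted p of 0.376 in limma. The sum of the effectors was 75.8 ± 4.89 FPKM in shNC and 85.0 ± 2.45 FPKM in shARHGEF2.

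Ratios of members within a library do not depend on how the library was scaled, and are given as a description with no test. BAX stood above BAK1 in every shNC library, with linear ratios of 1.24, 1.44 and 1.10, and below it in every shARHGEF2 library, with ratios of 0.800, 0.746 and 0.746. The mean log2 ratio was 0.33 ± 0.19 in shNC and -0.39 ± 0.06 in shARHGEF2 (SD, n = 3 each), a difference of -0.71. For BCL2L1 to BAK1, the ratios were 1.14, 1.3 and 1.04 in shNC and 0.701, 0.608 and 0.684 in shARHGEF2, a log2 difference of -0.80. Both ratios with BAK1 were thus above 1 in 3 of 3 control libraries and under 1 in 3 of 3 knockdown libraries. They share BAK1 and are not independent of each other or of its level.

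**Figure D2:**
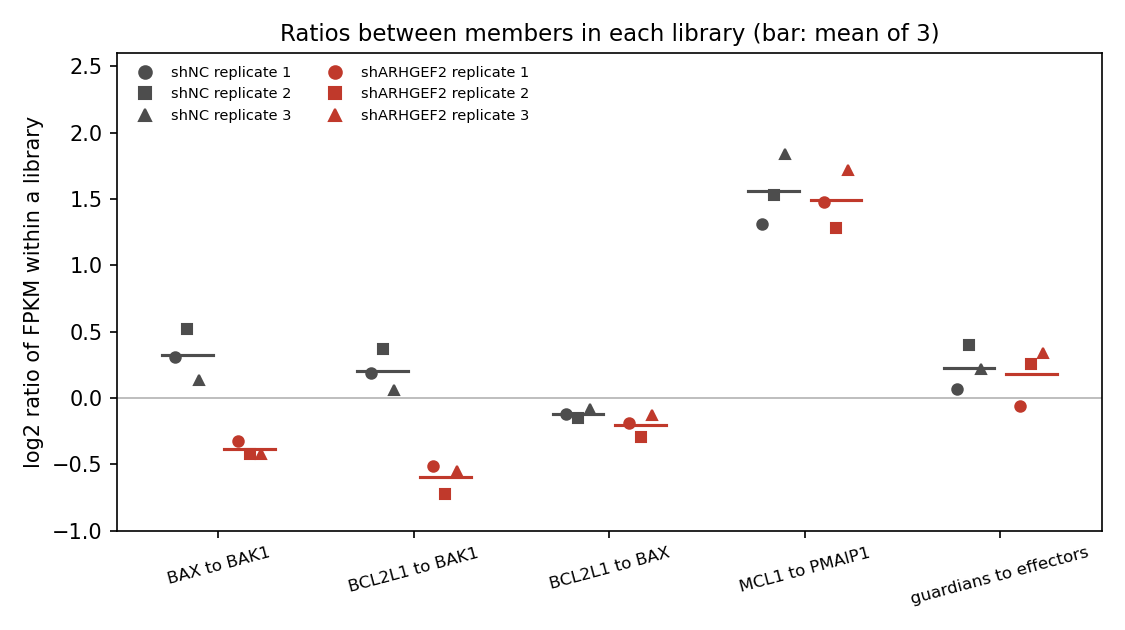
log2 ratios of FPKM between members within each library, shNC (grey) and shARHGEF2 (red), with a bar at the mean of 3. BAX to BAK1 and BCL2L1 to BAK1 fall on either side of 0 in the 2 groups, and the other 3 ratios overlap.

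The ratio of BCL2L1 to BAX was 0.919, 0.901 and 0.947 in shNC and 0.877, 0.815 and 0.917 in shARHGEF2, so the pair of lower members kept nearly the same proportion, with overlapping groups. MCL1 to PMAIP1, the ratio of MCL1 to the BH3-only transcript whose protein binds it, was 2.47, 2.88 and 3.58 in shNC and 2.79, 2.43 and 3.29 in shARHGEF2. That log2 difference was -0.06, against an SD of 0.27 in shNC. The summed anti-apoptotic to summed effector ratio was 1.05, 1.32 and 1.17 in shNC and 0.961, 1.19 and 1.26 in shARHGEF2, a log2 difference of -0.05. MCL1 to BCL2L11 (log2 difference -0.33) and BAX to BCL2 (-0.15) also overlapped.

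Of the 5 BH3-only members, PMAIP1 and BCL2L11 had higher means and BAD, BID and BIK lower means in shARHGEF2, and none passed the adjusted test. PMAIP1, which encodes NOXA and is induced by cell stress, was at 16.9, 19.0 and 14.7 FPKM in shNC and at 17.8, 29.3 and 21.8 FPKM in shARHGEF2. Replicate 1 of shARHGEF2 lay within the control range and the other 2 above it. Its log2 difference was 0.40 (95% interval 0.0006 to 0.80, limma adjusted p = 0.366), and 0.22 without shARHGEF2 replicate 2 (adjusted p = 0.689). BCL2L11, which encodes BIM, an activator of the effectors, was at 0.766, 2.49 and 2.86 FPKM in shNC and at 2.40, 3.34 and 2.85 FPKM in shARHGEF2. Its first control library was low and the other 5 lay between 2.40 and 3.34 FPKM. The log2 difference of 0.42 (95% interval -0.26 to 1.09, adjusted p = 0.584) became 0.06 without shNC replicate 1 (adjusted p = 0.902).

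BID links death receptors to mitochondria once caspase-8 has cut it. It was at 12.7, 13.4 and 14.4 FPKM in shNC and at 11.5, 12 and 12.5 FPKM in shARHGEF2, without overlap, and the highest knockdown library was just under the lowest control. The log2 difference was -0.15 (95% interval -0.38 to 0.07, adjusted p = 0.541). BAD, a sensitizer kept inactive by phosphorylation, was at 43.8, 48.9 and 52.5 FPKM in shNC and at 45.9, 38.2 and 47.7 FPKM in shARHGEF2. These groups overlapped, with a log2 difference of -0.14 (95% interval -0.40 to 0.12, adjusted p = 0.649), or -0.04 without shARHGEF2 replicate 2. BIK, an endoplasmic reticulum sensitizer, was at 11, 8.06 and 10.2 FPKM in shNC and at 9.33, 8.03 and 9.65 FPKM in shARHGEF2, also overlapping (log2 difference -0.10, 95% interval -0.40 to 0.21, adjusted p = 0.823). For BIK the difference was -0.01 without shNC replicate 1 and -0.21 without shNC replicate 2. The BH3-only members together came to 90.5 ± 4.90 FPKM in shNC and 90.8 ± 3.74 FPKM in shARHGEF2 (SD, n = 3 each).

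The members also differed in how tightly the libraries of a group agreed. In shNC the coefficient of variation was 2.30% for BAX, 3.31% for BCL2L1, 6.58% for BID, 13.5% for BAK1, 14.1% for MCL1, 38.8% for BCL2 and 54.8% for BCL2L11, the last 2 being the members with the lowest levels. In shARHGEF2 it was 1.49% for BAK1 and 25.4% for PMAIP1. MCL1 was lowest in replicate 1 of each group. Libraries also differed in how deviations from their group mean followed transcript GC content. Across genes the Spearman rho was 0.378, -0.522 and 0.242 for shNC replicates 1 to 3 and 0.601, -0.488 and -0.193 for shARHGEF2 replicates 1 to 3. MCL1 (47.9% GC) and PMAIP1 (46.2%) have lower GC content than BAK1 (58.8%), BAX (60.4%) or BAD (65.0%). With the GC trend removed from each library, 5 members and not 3 were under an unadjusted p of 0.05 (BAK1, MCL1 and PMAIP1 higher, BAX and BCL2L1 lower). Over all genes the count under that limma p also rose, to 2090 of 12231 from 1678 of 12291 in the reported fit. No member was called, and BAK1 was at 0.47 (adjusted p = 0.0856).

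Of the 13 other genes of the family, 12 were in the table and 8 were tested. None was called, 4 of the 8 were under an unadjusted p of 0.05 (13.7% of all genes tested), and their median log2 difference was 0.01. BMF, a BH3-only sensor associated with the actin and myosin V cytoskeleton, was at 3.63, 3.34 and 4.41 FPKM in shNC and at 6.40, 6.88 and 6.0 FPKM in shARHGEF2. The groups were well apart, with a log2 difference of 0.64 (95% interval 0.35 to 0.92, limma adjusted p = 0.105). BBC3, the BH3-only gene for PUMA, was at 7.14, 4.99 and 11.5 FPKM in shNC and at 12.3, 13.9 and 11.1 FPKM in shARHGEF2. The third control reached into the knockdown range, so the groups overlapped, and the log2 difference was 0.66 (adjusted p = 0.316). It was 0.94 without that library (adjusted p = 0.0600) and 0.41 without shNC replicate 2 (adjusted p = 0.488).

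BOK, a further effector-type member, was at 30.8, 24.4 and 25.4 FPKM in shNC and at 22.1, 19.1 and 21.7 FPKM in shARHGEF2 (log2 difference -0.34, adjusted p = 0.256). BNIP3, a mitophagy receptor induced by hypoxia, was at 15.7, 18.5 and 17.0 FPKM in shNC and at 12.6, 15.4 and 13 FPKM in shARHGEF2 (log2 difference -0.30, adjusted p = 0.290). Neither pair of groups overlapped. The anti-apoptotic BCL2L2 was between 0.614 and 1.51 FPKM in 5 libraries and at 6.97 FPKM in shARHGEF2 replicate 1, and its log2 difference turned from 0.54 to -0.17 without that library. BCL2L2 overlaps the readthrough gene BCL2L2-PABPN1, and the 2 summed gave 1.3, 1.93 and 4.5 FPKM in shNC and 7.44, 4.23 and 3.65 FPKM in shARHGEF2, which overlapped. BCL2L12 (-0.03), BCL2L13 (0.05) and the BNIP3 relative BNIP3L (-0.15) had log2 differences with intervals across 0, and BCL2A1, HRK, BCL2L14 and BCL2L15 were under the filter. Among the family's genes with no overlap, the 2 higher in shARHGEF2 were thus BAK1 and BMF, and the 5 lower were BCL2L1, BAX, BID, BOK and BNIP3. Of all genes tested, 11.3% were higher and 9.17% lower without overlap.

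**Figure D3:**
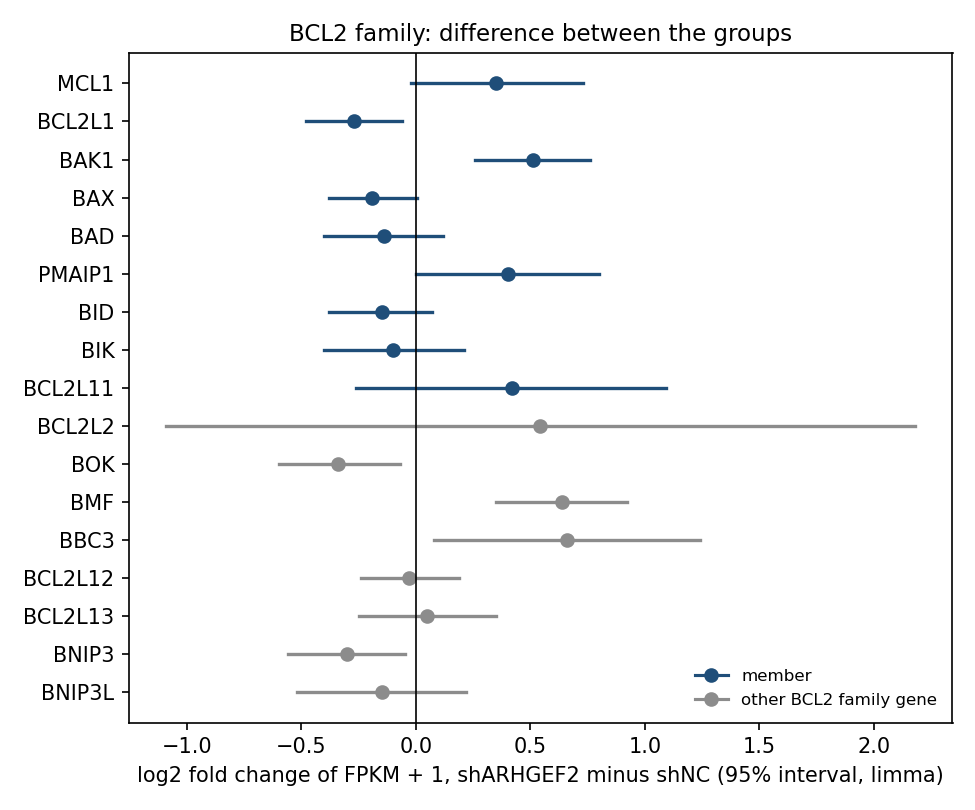
log2 fold change of FPKM + 1 (shARHGEF2 minus shNC, limma) with its 95% interval for the 9 members tested (blue) and the 8 other family genes tested (grey). Intervals lie above 0 for BAK1, PMAIP1, BMF and BBC3 and below 0 for BCL2L1, BOK and BNIP3, and no gene passed the adjusted threshold.

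Upstream and downstream of the family, 49 further apoptosis genes are described, of which 48 were in the table and 42 were tested. None was called, 4 were under an unadjusted p of 0.05, a share below the 13.7% of all genes tested, and the median log2 difference was -0.01. In the apoptosome and caspase list, 0 of the 14 described were under that p. The nuclease ENDOG (-0.29) and the protease HTRA2 (0.11) had the highest levels of the list and intervals across 0. All 5 inhibitor of apoptosis genes tested had higher means, with log2 differences from 0.07 to 0.50. The log2 difference was above 0 for 49.6% of all genes tested, and among these 5 only the interval of BIRC2 excluded 0. BIRC2, which encodes the ubiquitin ligase cIAP1, was the only one of them under an unadjusted p of 0.05, at 1.17, 1.38 and 0.878 FPKM in shNC and 1.47, 2.54 and 2.14 FPKM in shARHGEF2 (log2 difference 0.50, adjusted p = 0.234, or 0.78 with a pseudocount of 0.1). BIRC5 (0.25) and BIRC3 (0.08) overlapped.

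In the death receptor list, 1 of 8 tested was under an unadjusted p of 0.05, near the share of all genes tested (13.7%). The TRAIL receptor TNFRSF10B was at 21.3, 26.8 and 26.0 FPKM in shNC and 28.2, 32.6 and 30.8 FPKM in shARHGEF2, with no overlap (log2 difference 0.30, adjusted p = 0.304). The TNF receptor TNFRSF1A (-0.07) and the adaptor FADD (-0.14) overlapped. The outer membrane channels VDAC1 (-0.09) and VDAC2 (0.02), the latter a known partner of BAK, also overlapped. So did proteins that hold or turn over members, such as the BIM partner DYNLL1 (-0.17) and YWHAZ (-0.07), a phosphoserine-binding protein that sequesters BAD. In these 2 lists, 0 of 10 tested were under an unadjusted p of 0.05.

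Of the 5 transcription factors described and tested that are known to act on the family, 2 were under an unadjusted p of 0.05, against 13.7% of all genes tested. E2F1, which drives entry into S phase and can activate BH3-only genes, was at 55.3, 41.5 and 60.0 FPKM in shNC and 75.7, 72.0 and 68.1 FPKM in shARHGEF2, without overlap (log2 difference 0.47, adjusted p = 0.190, or 0.31 without shNC replicate 2). DDIT3, the stress-induced factor CHOP, was at 8.77, 7.73 and 15.2 FPKM in shNC and 13.8, 39.0 and 23.5 FPKM in shARHGEF2 (log2 difference 1.13, adjusted p = 0.336). It was highest in shARHGEF2 replicate 2, as were several other genes named, among them PMAIP1, BCL2L11, BBC3, BMF, BIRC2, BIRC3 and TNFRSF10B. Other genes named were highest elsewhere, BAK1 and E2F1 in shARHGEF2 replicate 1 and MCL1 and BIRC5 in shARHGEF2 replicate 3. The share of all genes that were highest in shARHGEF2 replicate 2 was not taken. The groups of DDIT3 overlapped.

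**Figure D4:**
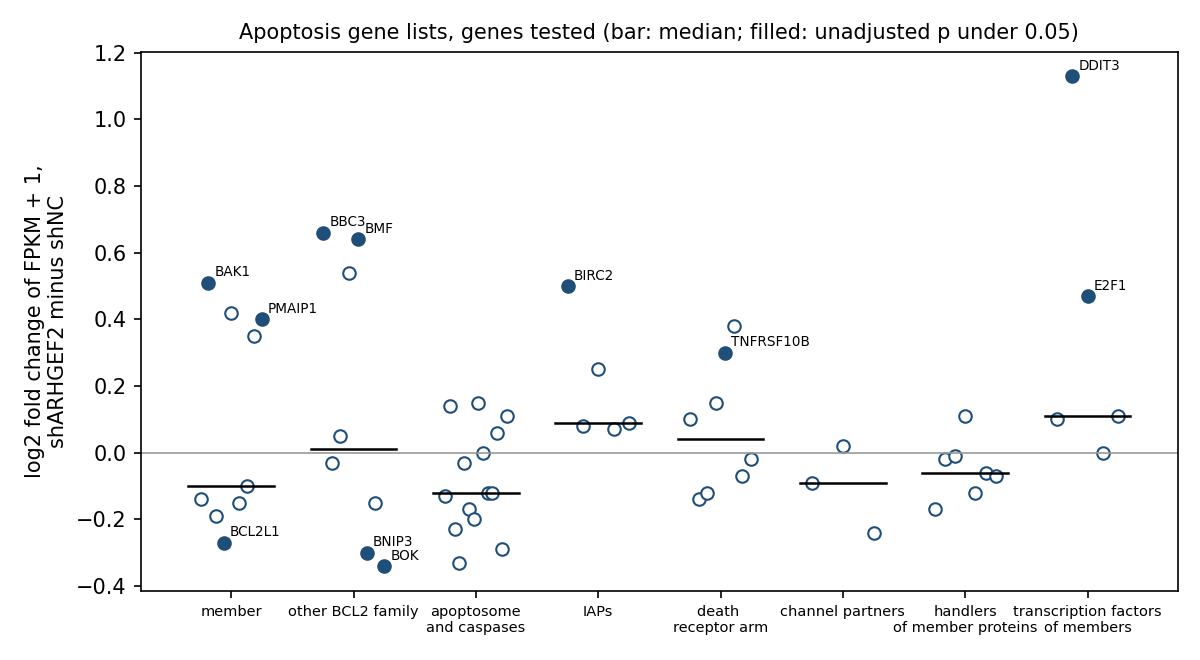
log2 fold change of FPKM + 1 (shARHGEF2 minus shNC, limma) of each gene tested, by list, with a bar at the list's median and filled points for an unadjusted p under 0.05. The members spread from -0.27 to 0.51 and the medians of the 8 lists lie between -0.12 and 0.11.

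The direction of each tested member's difference was the same under all 14 alternatives, which makes 126 of 126 pairs of member and alternative. No member was called under any of them. For the replicate block, the other filters on level, and limma without trend and robust estimation, the log2 difference is the same by construction. Those pairs could not have differed in direction. The groups of BAK1, BCL2L1, BAX and BID did not overlap. Their direction was therefore also fixed with 1 library left out or with a pseudocount of 0.1. The 95% intervals of the 9 members spanned from 0.38 (BAX) to 1.34 (BCL2L11) in log2 units. These intervals are not adjusted for the number of genes. Those of BAK1 (from 0.26), PMAIP1 (from 0.0006) and BCL2L1 (up to -0.06) each held differences of a single sign. Differences of either sign stayed within the intervals of MCL1, BAX, BAD, BID, BIK and BCL2L11.

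**Figure D5:**
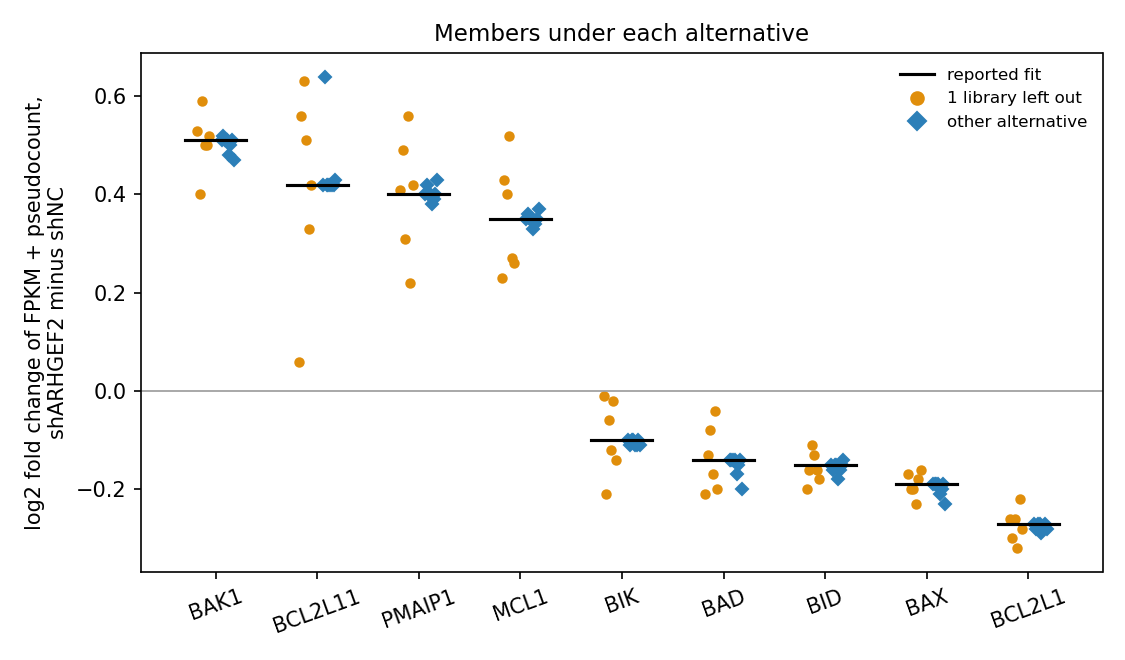
log2 fold change (shARHGEF2 minus shNC) of the 9 members tested, in the reported fit (black bar), with 1 library left out (orange) and under the 8 other alternatives (blue). Each member keeps its sign, BAK1 between 0.40 and 0.59, and BCL2L11 falls to 0.06 without shNC replicate 1.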

How the data were processed

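PolyA RNA of 6 libraries (3 shNC, 3 shARHGEF2) was sequenced in pairs of reads with strand marking, and the deposited table gives FPKM per gene and library. The submitters' processing notes name cutadapt 1.9, HISAT2 2.0.4, UMI-tools, StringTie 1.3.4d and the build hg19, and the annotation is not given in the sources used here. The same file holds the authors' own mean ratios, p-values and adjusted p-values, which were not used. Of 27605 genes, the 12291 whose mean reached 0.5 FPKM were tested with limma 3.58.1 (R 4.3.3, statmod 1.5.0) on log2(FPKM + 1), with a mean-variance trend, robust estimation and Benjamini-Hochberg adjustment over all of them, and were called at an adjusted p under 0.05. A fold change on this scale understates that of low genes. Single values were compared by exact permutation tests with SciPy 1.17.1. The script was tested on simulated data. The files hold no counts. Depth was estimated from the spacing of FPKM among single-transcript genes of at least 600 nt, at 19724000 to 22956000 read pairs per library, where 39.2% to 40.7% of low values came within 0.1 of a whole number of pairs against 20% by spacing alone. This was too few to recover reads, and the depth behind each value is only an estimate (166 to 238 pairs for BIK). Transcript GC content was taken from GENCODE and start-site windows from RefSeq, and no coordinate was converted between builds.

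The members and gene lists were chosen with earlier results of these data known. Of the listed pathway genes, 2 are not reported here and are left out of the list counts and medians. The genes named are ARHGEF2, the members, the tested other family genes, the cell type markers, and from each pathway list those under an unadjusted p of 0.05 (at most 4) plus the 2 with the highest mean FPKM. Other settings tried were no filter on level, at least 1 FPKM in 3 libraries, 0.1 as the pseudocount, a block for the replicate number, quantile normalization, median-of-ratios scaling, limma without trend or robust estimation, and each library left out in turn. A fit after a loess trend on GC content (span 0.3) was taken out, the counts at an unadjusted p, the non-overlap counts and the summed near-copies were added after the data were seen.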

Additional observations from a re-analysis of the deposited data

How the results depend on the processing

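Each of the 9 tested members kept its direction and its side of the adjusted threshold under all 14 alternatives. The direction could not change under the replicate block, the other filters on level, or limma without trend and robust estimation. Nor could it for BAK1, BCL2L1, BAX and BID, whose groups did not overlap, with 1 library left out or 0.1 as the pseudocount. The lowest adjusted p in limma of any member was 0.0670 (BAK1 without shNC replicate 3). The 34 genes called over the whole table became 0 with the replicate block, 1 with no filter on level, 54 at 1 FPKM or more in 3 libraries, 19 with quantile normalization and 7 with either median-of-ratios scaling or limma without trend and robust estimation, and ran from 6 to 102 with 1 library left out (102 without shNC replicate 3). The deviations of same-numbered libraries from their group means correlated at 0.184 and 0.159 for replicates 1 and 2 and at -0.105 for replicate 3. The numbers were not taken to pair the libraries. Correlations of differently numbered libraries are not given here, so these values do not settle whether the numbers pair them. The GC trends of same-numbered libraries had the same sign for replicates 1 (0.378 and 0.601) and 2 (-0.522 and -0.488) and opposite signs for replicate 3. A shared batch was not tested. The replicate block changed no call among the members or the lists, and took MCL1 from an unadjusted limma p of 0.0628 to 0.00614. It moved ARHGEF2 to an adjusted p of 0.0716. The 3 members under an unadjusted p of 0.05 became 5 with the GC trend removed and 1 to 5 with 1 library left out. There were 1 without shARHGEF2 replicate 2 and 5 without shARHGEF2 replicate 1. They became 4 with the replicate block or median-of-ratios scaling, and 2 with a pseudocount of 0.1 or without trend and robust estimation. Over all genes tested, 1678 in the reported fit became 1179 to 1961 with 1 library left out. That count was 1976 with the replicate block and 2090 with the GC trend removed. The 4 other family genes under that p became 3 with the replicate block and 2 to 3 with 1 library left out. There were 2 without shNC replicate 1 or 2 or shARHGEF2 replicate 1 or 2. With 1 library left out the log2 difference changed sign for BCL2L2 (-0.17 to 0.99), BCL2L12 (-0.08 to 0.02), BCL2L13 (-0.02 to 0.15), HTRA2 (-0.03 to 0.20), BIRC3 (-0.09 to 0.27), TNFRSF1A (-0.20 to 0.07), VDAC1 (-0.15 to 0.01), VDAC2 (-0.11 to 0.09) and YWHAZ (-0.16 to 0.05). Quantile normalization took VDAC2 to -0.0008. The cause of these moves was not tested. With 3 libraries per group and no counts, the 95% intervals of MCL1, BAX, BAD, BID, BIK and BCL2L11 include 0.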

Other observations

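MCL1 was the member with the highest level. For 10210 genes whose mean reached 1 FPKM, Pearson r with MCL1 was taken on log2(FPKM + 1) over the 6 libraries. The highest were KLHDC2 (r = 0.997), a substrate receptor of a ubiquitin ligase, CHMP1B (r = 0.993), an ESCRT-III subunit, and USP39 (r = 0.990), a splicing factor. The 6 points share their libraries with the group difference and the GC trends described above, and no p is given. In shNC and shARHGEF2 the means were 2.36 and 2.57 FPKM for KLHDC2, 20.5 and 23.5 FPKM for CHMP1B and 13.2 and 15.2 FPKM for USP39.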
